A study of Mus musculus with 44 samples.

Results

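The 10 genes described here are antioxidant genes linked to the transcription factor NRF2: Nqo1, Gclc, Gclm, Hmox1, Srxn1, Txnrd1, Gpx2, Osgin1, Slc7a11 and Nfe2l2, the gene of NRF2 itself. They were taken as a named list and looked up by symbol among the 35249 genes of a mouse liver RNA sequencing count table. All 10 were found, and all 10 were among the 14862 genes that passed a filter on low counts and were tested. The study compared wild type (WT) mice with mice lacking Ripk3 or Mlkl, whose proteins carry out necroptosis, a lytic form of programmed cell death. Mice entered the study at 2 months of age and were then kept for 6 months on normal chow (the control diet) or on choline deficient feed that was low (CD-LFD) or high (CD-HFD) in fat. The 44 liver libraries fell into 9 groups: WT with 6 libraries on each diet, Ripk3-/- with 6 on control, 3 on CD-LFD and 4 on CD-HFD, and Mlkl-/- with 6 on control, 4 on CD-LFD and 3 on CD-HFD. Beyond Ripk3-/- and Mlkl-/- the labels name no allele or strain, and they name no sex, litter or batch. They number the libraries of a group without saying in words that each is a separate mouse, so the p-values measure only the spread between these libraries.

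In unstressed cells KEAP1 holds NRF2 in the cytoplasm and directs it to degradation through the CUL3 and RBX1 ubiquitin ligase. Oxidants and electrophiles modify KEAP1, NRF2 then accumulates, pairs with a small MAF protein and binds antioxidant response elements near its target genes. In the liver these targets make glutathione, reduce thioredoxin and quinones, break down haem and import cystine, and because NRF2 is controlled mainly as a protein, the mRNA of Nfe2l2 need not follow its activity. Srxn1, Hmox1, Slc7a11, Osgin1 and Gclc also answer to other factors, so their RNA levels are not a specific readout of NRF2.

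Total counts ran from 2476268 to 12471844 per library, apart from WT CD-LFD replicate 3 with 88204703. Ripk3 averaged 2.01, 2.39 and 3.08 counts per 1000000 counts of the library (CPM, scaled by edgeR's trimmed mean of M-values) in WT livers on control, CD-LFD and CD-HFD, against 0.316, 0.0251 and 0.0628 CPM in Ripk3-/- livers. The library labelled Ripk3-/- control replicate 5 held 9 of that group's 13 Ripk3 counts, and its 1.26 CPM lay within the WT control range of 0.51 to 4.88. Mlkl averaged 4.9, 11.5 and 16.1 CPM in WT and 2.26, 3.48 and 6.71 CPM in Mlkl-/- livers. The library labelled Mlkl-/- CD-HFD replicate 1 had 12.5 CPM of Mlkl, close to the WT CD-HFD range of 14.3 to 17.6, while replicates 2 and 4 had 4.82 and 2.79. On the control diet, Mlkl-/- replicates 1 and 5 had 3.01 and 3.03 CPM, within the WT control range of 2.28 to 6.14, and the other 4 had 1.46 to 2.23. Ripk3-/- control replicates 1 and 2 stood apart from replicates 3 to 6 over all genes (chi-square per degree of freedom 36.4 to 99 against those 4, and 9.56 to each other), although replicates 3 to 6 differed among themselves by up to 41.2. Results on these groups are therefore also given without these libraries, though not for every value. Leaving out either knockout pair was chosen after seeing the data. WT control replicates 5 and 6 stood apart as well (chi-square per degree of freedom 53.5 to 110 against replicates 1 to 4, and 18.3 to each other). They held the lowest WT control values of Txnrd1 (81.1 and 86.1 CPM) and Hmox1 (10 and 7.08) and the highest of Nfe2l2 (123 and 148). Fits without this pair are given where they changed a member's call. The clock genes Arntl and Dbp split the libraries into sets of 33 and 11, and the smaller set held WT control replicates 1, 3, 5 and 6, all 6 WT CD-LFD livers and WT CD-HFD replicate 3, so clock phase and diet are partly tied together in WT. Hepatocyte RNA dominated the libraries, with Alb, the albumin gene, at 85968 CPM in WT control livers.

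On the control diet the members covered a wide range of abundance in WT livers when CPM were divided by the length of all annotated exons of the gene together, in kilobases, which can exceed that of any 1 transcript. Gclc, the catalytic subunit of glutamate-cysteine ligase, stood at 93.5 CPM per kb (range 52.4 to 139), and Osgin1, an oxidative stress growth inhibitor, at 93 (41.7 to 130). Gclm, the modifier subunit of the same ligase, followed at 37 (25.6 to 41.3), Nfe2l2 at 26.2 (19.6 to 39), Txnrd1, the cytosolic thioredoxin reductase, at 20 (11.4 to 26.5) and Srxn1, which repairs overoxidised peroxiredoxins, at 14 (9.86 to 17.4). Hmox1, the haem-degrading oxygenase, stood at 7.34 (4.04 to 9.45) and Nqo1, a quinone reductase, at 3.33 (2.37 to 4.7). Gpx2, a glutathione peroxidase best known from the gut, was close to the detection limit at 0.0197 CPM per kb, and Slc7a11, the cystine importer, had no count in any of the 6 livers. In this order only Osgin1 and Gclm, Srxn1 and Hmox1, and Nqo1 and Gpx2 were neighbours whose ranges did not overlap. The members also differed in how much livers of one group varied: the within-group coefficient of variation (root mean square over groups) was 12.1% for Gclm, 19% for Nfe2l2, 25.5% for Txnrd1, 27.5% for Srxn1 and between 31% and 33.1% for Hmox1, Nqo1, Osgin1 and Gclc. Slc7a11 and Gpx2, with few counts, varied by 104% and 143%.

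The start-site sequences of these genes are shown because antioxidant response elements near the start are the route by which NRF2 is known to act. RefSeq promoter windows (build GRCm38.p6, 250 bases before to 50 after the start site) were matched for 8 of the 10 members, giving 10 windows. Gclc and Hmox1 had no entry. The element's core was searched as TGACNNNGC on both strands. It was found in 4 of 10 member windows (40%), 1 each for Nfe2l2, Srxn1, Gclm and Txnrd1, against 4071 of 32851 windows of all genes (12.4%). At the level of genes, 4 of 8 matched members held it in at least 1 window, against 3781 of 27025 genes (14%). Written in the direction of transcription, with the match in capitals, the 4 windows and that of Slc7a11, shown as a member with no match that was called higher in all 9 diet comparisons, read:
Nfe2l2, chr2:75704614-75704913, minus strand: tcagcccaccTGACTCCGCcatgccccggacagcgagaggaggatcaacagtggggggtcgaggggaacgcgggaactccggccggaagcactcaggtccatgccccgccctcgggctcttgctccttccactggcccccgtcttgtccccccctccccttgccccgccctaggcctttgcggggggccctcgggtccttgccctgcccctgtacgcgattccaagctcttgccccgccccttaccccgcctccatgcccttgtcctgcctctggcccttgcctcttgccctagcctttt
Srxn1, chr2:152105274-152105573, plus strand: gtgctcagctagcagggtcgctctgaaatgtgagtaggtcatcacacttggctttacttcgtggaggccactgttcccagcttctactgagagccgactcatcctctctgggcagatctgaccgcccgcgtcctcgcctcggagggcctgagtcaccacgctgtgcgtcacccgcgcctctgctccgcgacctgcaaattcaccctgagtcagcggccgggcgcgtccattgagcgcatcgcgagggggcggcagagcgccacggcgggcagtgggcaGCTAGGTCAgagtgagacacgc
Gclm, chr3:122245307-122245606, plus strand: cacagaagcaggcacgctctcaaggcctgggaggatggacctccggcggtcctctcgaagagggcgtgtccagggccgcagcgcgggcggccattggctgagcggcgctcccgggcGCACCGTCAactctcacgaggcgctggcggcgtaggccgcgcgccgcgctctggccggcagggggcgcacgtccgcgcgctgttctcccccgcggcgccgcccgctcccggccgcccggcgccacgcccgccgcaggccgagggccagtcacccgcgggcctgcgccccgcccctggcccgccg
Txnrd1, chr10:82858956-82859255, plus strand: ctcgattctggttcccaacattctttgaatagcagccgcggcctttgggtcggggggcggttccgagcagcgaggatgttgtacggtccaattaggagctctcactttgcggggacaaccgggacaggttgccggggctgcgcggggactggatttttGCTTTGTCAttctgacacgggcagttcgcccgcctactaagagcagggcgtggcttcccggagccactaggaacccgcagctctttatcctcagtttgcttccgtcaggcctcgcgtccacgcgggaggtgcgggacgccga
Slc7a11, chr3:50443564-50443863, minus strand: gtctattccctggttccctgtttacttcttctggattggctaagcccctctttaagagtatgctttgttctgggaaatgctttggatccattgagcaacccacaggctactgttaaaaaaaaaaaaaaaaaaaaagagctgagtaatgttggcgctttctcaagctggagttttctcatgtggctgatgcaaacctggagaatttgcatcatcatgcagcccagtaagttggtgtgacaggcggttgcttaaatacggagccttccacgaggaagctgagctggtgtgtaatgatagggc
In Nfe2l2 the match TGACTCCGC lay on the transcribed direction from position -240. In the other three the core lies on the opposite strand, so the capitals show its reverse complement: the matches were TGACCTAGC at 29 in Srxn1, TGACGGTGC at -134 in Gclm and TGACAAAGC at -92 in Txnrd1. The related AP-1 site TGACTCA was present in the windows of Srxn1 and Osgin1 and in 1709 windows of all genes (5.2%), and it did not overlap any of the core matches. In both members the letters around such a site read TGAGTCAGC on 1 strand. This matches the searched core except that TGAC is TGAG, so the search could not count it. These are letter matches in a short window and say nothing of elements farther away.

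On CD-HFD, WT livers had more Hmox1, Nqo1, Srxn1, Gpx2 and Slc7a11 RNA than on the control diet and less Gclc and Gclm. Thus 5 of 10 members were called higher and 2 lower (edgeR quasi-likelihood test, Benjamini-Hochberg adjusted p under 0.05), against 23.5% and 24.1% of all genes tested. Since so many genes changed, the count by itself says little about the set. The median log2 change was 0.90 for the members and -0.07 for all genes, a value that is the same whether Slc7a11 is entered as fitted or at its lower bound.

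Hmox1 was at 7.08, 13.9 and 16.5 CPM (lowest, median and highest of 6) on control and at 40.9, 55.5 and 80.1 on CD-HFD. Every CD-HFD liver lay above every control liver. The log2 change was 2.16 (SE 0.283, 4.48-fold, adjusted p = 3.51e-08). For Nqo1 the control livers had 3.68, 4.99 and 7.29 CPM and the CD-HFD livers 11.2, 15.9 and 23, again without overlap. Nqo1 rose by 1.68 (SE 0.263, adjusted p = 1.21e-06). Srxn1 had 27.8, 40.4 and 48.9 CPM on control and 91, 119 and 160 on CD-HFD, so that its lowest CD-HFD liver stood well clear of the highest control. Its change was 1.59 (SE 0.307, adjusted p = 4.13e-05).

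Slc7a11 and Gpx2 were close to the detection limit on the control diet. Slc7a11 went from 0 counts over the 6 WT control livers to 218 counts over the 6 CD-HFD livers, at 2.27, 3.51 and 5.96 CPM (lowest, median, highest). Taken against a floor of 3 counts over the control group, it was at least 34.6-fold higher on CD-HFD (adjusted p = 5.29e-10). Gpx2 went from 2 to 63 counts, a ratio of 15 with a 95% exact interval of 3.99 to 127 that, like the floor, covers counting error only. All 6 CD-HFD livers, at 0.721 to 2.07 CPM, exceeded the highest control at 0.244 (adjusted p = 0.000299). The call was lost within the larger clock-phase set (fitted log2 change 2.69, adjusted p = 0.0944), and the ratio was 25.4 (4.4 to 1020) without WT control replicate 2, which held 1 of the 2 control counts.

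The glutamate-cysteine ligase subunits moved the other way. Gclc had 197, 316 and 525 CPM on control and 157, 190 and 300 on CD-HFD. The ranges overlapped, and the log2 change was -0.79 (SE 0.261, adjusted p = 0.0114). This call was lost with clock phase as a covariate (-0.33, adjusted p = 0.365), within the larger clock-phase set (-0.20, adjusted p = 0.656) and with scaling by library size alone (-0.29, adjusted p = 0.346). Gclm had 161, 243 and 260 CPM on control and 145, 179 and 201 on CD-HFD, a change of -0.41 (SE 0.12, adjusted p = 0.00458). Scaling by library size alone turned Gclm to 0.09, and it missed the threshold without the count filter (-0.35, adjusted p = 0.0888) and when the 2 groups were fitted alone (-0.38, adjusted p = 0.0561). That scaling moved the median of all genes up by 0.49 and the share of calls that were higher from 49.4% to 86.9%. It called 6 members higher and 0 lower, against 6799 and 1021 of the 14862 genes tested.

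The remaining 3 members did not pass the test in this comparison: Txnrd1 at -0.16 (SE 0.218), Osgin1 at 0.22 (SE 0.26) and Nfe2l2 at -0.18 (SE 0.169), with adjusted p from 0.41 to 0.566. Osgin1 passed within the larger clock-phase set (1.14, adjusted p = 0.018) and with scaling by library size alone (0.70, adjusted p = 0.0231). Nfe2l2 had 74.6, 87.2 and 148 CPM on control and 77.2, 89.4 and 95.9 on CD-HFD, so the medians were close and the control livers were the more spread out.

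**Figure D1:**
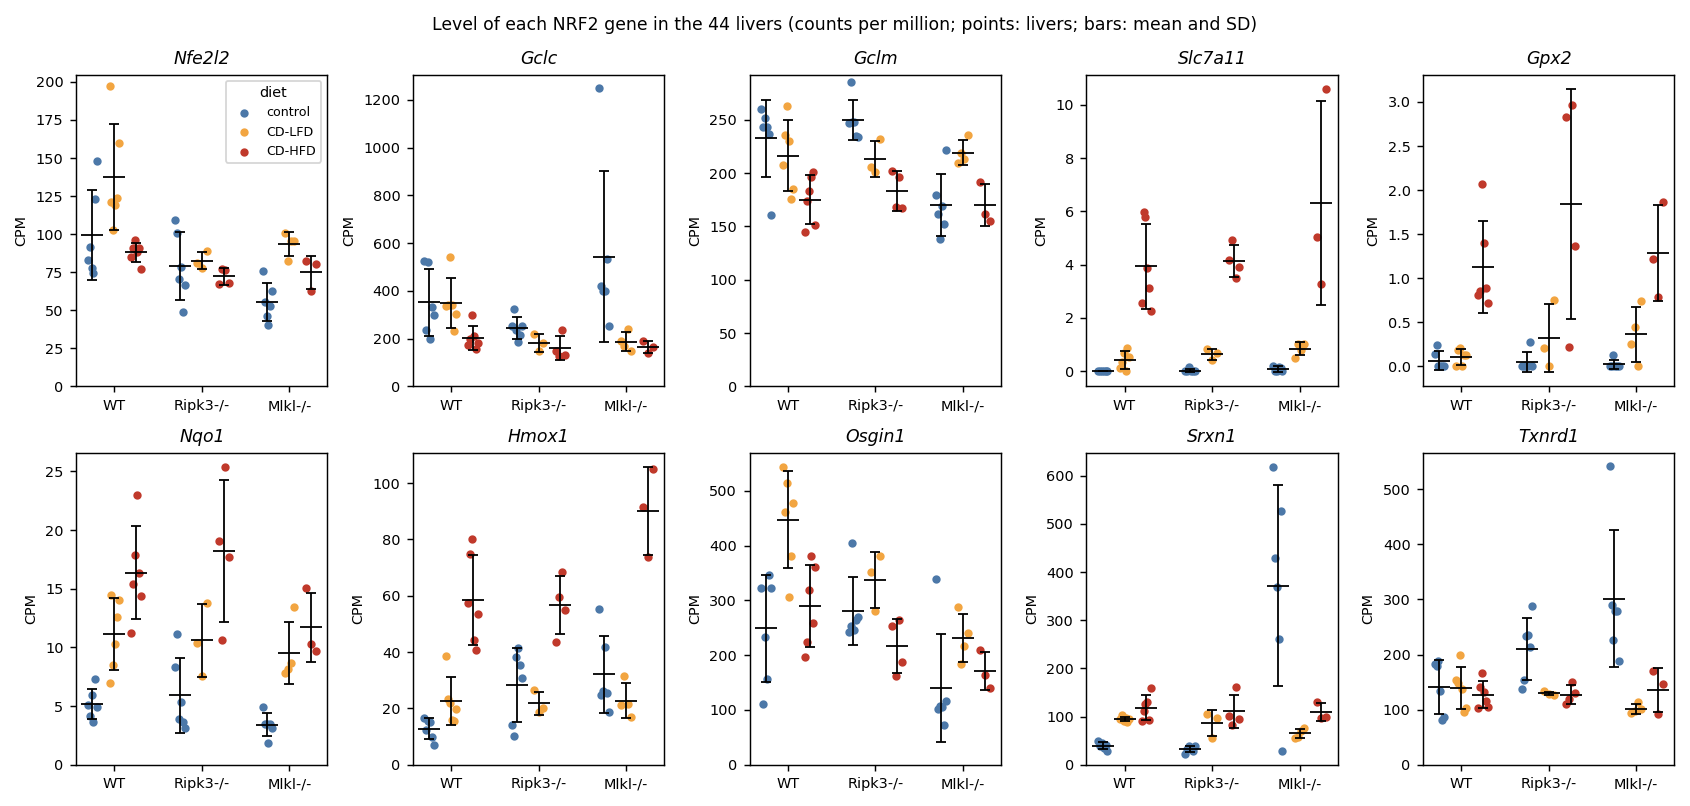
Level of each of the 10 genes in every liver, in CPM on a linear axis, by genotype and diet; points are livers, bars the group mean and SD. Hmox1, Nqo1 and Slc7a11 are highest on CD-HFD in each genotype, while Srxn1 has its highest values in Mlkl-/- livers on the control diet, at 261 to 618 CPM in 5 of 6 of them.

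On CD-LFD 6 of 10 members were called higher in WT livers than on control and 0 lower by edgeR, against 13.7% and 14% of all genes. The member median was 0.81 and that of all genes -0.03. All WT CD-LFD livers were in the smaller clock-phase set. Srxn1 had 89, 94.7 and 103 CPM on CD-LFD, which was above every control liver (27.8 to 48.9) and tightly grouped. It rose by 1.26 (SE 0.305, adjusted p = 0.00184). Nqo1 had 6.96, 11.5 and 14.5 CPM, overlapping the control range at its lower end, and rose by 1.11 (SE 0.266, adjusted p = 0.00169). Slc7a11 had 73 counts, from 0 CPM in the lowest liver to 0.864 CPM in the highest, which made it at least 5.36-fold higher than in control livers (adjusted p = 0.000866). The deepest library, CD-LFD replicate 3, held 59 of the 73. Without it the fitted log2 change was 4.57 (adjusted p = 0.00267), against 5.18 with it. Osgin1 had 306, 469 and 544 CPM against 111, 278 and 347 on control. Its change was 0.85 (SE 0.261, adjusted p = 0.0134). Hmox1 (0.79, adjusted p = 0.0319) and Nfe2l2 (0.47, SE 0.169, adjusted p = 0.0345) were also called. With clock phase in the model all 3 of these calls were lost, with Osgin1 at 0.66 (adjusted p = 0.062), Hmox1 at 0.72 (adjusted p = 0.0837) and Nfe2l2 at 0.38 (adjusted p = 0.119). Hmox1 also lost its call when any of 5 of the 12 livers was left out and without WT control replicates 5 and 6 (0.58, adjusted p = 0.121), a pair that earlier results had named for counts in predicted genes. Nfe2l2 lost its call in 6 of 12 fits that left out 1 liver and when the 2 groups were fitted alone (0.50, adjusted p = 0.138). Gpx2 did not pass on CD-LFD in WT, at 0.107 CPM against 0.0636 on control (fitted log2 change 0.84, adjusted p = 0.579). Its 21 CD-LFD counts faced 2 control counts, a ratio of 2.31 with an interval of 0.566 to 20.4. CD-LFD replicate 3, the deepest library, held 18 of the 21, and without it the ratio was 1.17 (0.134 to 14). Without WT control replicate 2 it was 3.92 (0.63 to 162).

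The high fat form of the diet went further than the low fat form for 3 members. Between CD-HFD and CD-LFD, 3 members were called higher and 2 lower in WT, against 13.7% and 7.4% of all genes. Hmox1 was 15.7, 20.7 and 38.6 CPM on CD-LFD, all below the lowest CD-HFD liver, and the change was 1.38 (SE 0.265, adjusted p = 0.000141). Slc7a11 was 6.46-fold higher on CD-HFD (95% exact interval of the counts 4.93 to 8.54, adjusted p = 5.52e-07) and Gpx2 6.49-fold (3.91 to 11.2, adjusted p = 0.000315). Without CD-LFD replicate 3 the Gpx2 ratio was 12.8 (4.19 to 63.9). Nqo1 (0.57, adjusted p = 0.0789) and Srxn1 (0.32, adjusted p = 0.494) did not pass. Nfe2l2 was lower on CD-HFD, with 77.2 to 95.9 CPM against 103 to 197 and no overlap (-0.64, SE 0.168, adjusted p = 0.00416), as was Gclc (-0.78, adjusted p = 0.0277). Both calls were lost with clock phase as a covariate, Nfe2l2 at -0.41 (adjusted p = 0.28) and Gclc at -0.09 (adjusted p = 0.914). Scaling by library size alone also ended both, Nfe2l2 at -0.46 (adjusted p = 0.0533) and Gclc at -0.56 (adjusted p = 0.111), and Nqo1 passed under it (0.73, adjusted p = 0.0271). Gclc lost its call without WT CD-LFD replicate 3 (-0.61, adjusted p = 0.108) and without any of WT CD-HFD replicates 1, 5 and 6.

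Markers of other cell types moved with these diet changes, and in bulk tissue fewer cells of a type cannot be told apart from less RNA per cell. From control to CD-HFD in WT, 8 of 10 macrophage markers were called higher and 1 lower (median 3.85), 5 of 5 cholangiocyte markers and 5 of 6 stellate cell markers were called higher. Of the T cell markers 3 of 4 were called higher (median 3.44), with sums of 1.71 to 4.56 CPM on control and 7.02 to 19.1 on CD-HFD. Lower were 6 of 7 hepatocyte markers (median -0.86) and 4 of 4 endothelial markers (median -0.80), the latter with sums of 138 to 166 CPM on control and 62.6 to 100 on CD-HFD. The summed macrophage markers rose from 169 to 221 CPM over control livers to 247 to 396 on CD-LFD and 1043 to 2656 on CD-HFD. On CD-HFD they ran from 1456 to 2015 CPM in Ripk3-/- and from 1508 to 2529 in Mlkl-/- livers. In WT the summed hepatocyte markers had medians of 125813 CPM on control, 86423 on CD-LFD and 63340 on CD-HFD. In Ripk3-/- livers these medians were 125295, 93278 and 79119 CPM. In Mlkl-/- livers the sums were higher on CD-LFD, at 122420 to 133777 CPM against 100944 to 118560 on control with no overlap, and lower on CD-HFD, at 68409 to 90876 CPM. Of the 7 hepatocyte markers there, CD-LFD had 2 called higher and 2 lower, and CD-HFD had 4 called lower. From control to CD-HFD in WT, Lyz2, a macrophage lysozyme, changed by 4.47 and Gpnmb, a marker of lipid-laden macrophages, by 9.77. Of the 4 neutrophil markers 2 could be tested, 1 was called higher in WT and their sum had a median of 1.15 CPM on WT control and 4.95 on WT CD-HFD, with Ly6g at 0 in both groups. Of the 4 intestine markers, which bear on Gpx2, 3 could be tested and 1 was called higher (Vil1, from 0.24 to 4.7 CPM). The WT intestine sums overlapped, at 51.1 to 141 CPM on control, 89.7 to 163 on CD-LFD and 80.5 to 161 on CD-HFD. In Mlkl-/- livers the sums did not overlap, at 44.3 to 60.4 CPM on control, 154 to 188 on CD-LFD and 90.2 to 140 on CD-HFD. There 3 of 3 intestine markers were called higher on CD-LFD (median 2.30) and 2 of 3 on CD-HFD (median 1.59). In Ripk3-/- livers 1 of 3 was called higher on each diet, with sums of 32.5 to 210 CPM on control, 159 to 209 on CD-LFD and 114 to 137 on CD-HFD, so the control range overlapped that of each diet. Their part in the rise of Hmox1, Slc7a11 and the other members was not tested.

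The genes whose levels followed each member most closely over the 44 livers differ between members. These correlations of log2 CPM, over 11143 genes, describe libraries that share diet, genotype and depth, and carry no test. Slc7a11 was closest to Mfge8 (Pearson's r 0.96), Anxa3 (0.95) and Lyz2 (0.95), and Hmox1 to Ccl6 (0.92), Lgmn (0.91) and Rhob (0.89). Gpx2 was closest to Serpinb6a (0.89), Mfge8 (0.88) and Timp2 (0.87). Nqo1 was closest to Cd47, Lgals1 and Renbp, each at 0.89. Srxn1 had a different set of neighbours, Lmna (0.91), Tubb6 (0.90) and Krt8 (0.87), genes of the nuclear lamina, tubulin and keratin cytoskeleton. Txnrd1 was closest to Eaf1, Ywhag and Gsr, the glutathione reductase, each at 0.92. Gclc was nearest to Net1 and Avpr1a at 0.83 and Gclm to Ugt2b36 at 0.84. Osgin1 had no close neighbour, with Bcl7c highest at 0.67, while Nfe2l2 was nearest to Mug-ps1 at 0.84.

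In Ripk3-/- livers, CD-HFD raised Nqo1, Hmox1, Srxn1, Gpx2 and Slc7a11 over the control diet, and Gclm and Txnrd1 fell. These were 5 members higher and 2 lower, against 24.6% and 21.7% of all genes, with a member median of 0.43 and an all-gene median of -0.05. With scaling by library size alone they were 5 and 0, where 6855 of the 14862 genes tested were called higher and 741 lower. The 4 CD-HFD livers had 19.1, 10.6, 25.4 and 17.7 CPM of Nqo1 against 3.12 to 11.1 on control, with overlap in 1 CD-HFD liver (1.64, adjusted p = 3.73e-06). Srxn1 had 102, 83.4, 162 and 95.2 CPM, all above the control range of 23.3 to 38.9 (1.76, adjusted p = 2.82e-05). Hmox1 had 43.5, 59.7, 68.4 and 55.1 CPM, also above every control liver. It was 1.99-fold higher (SE 0.289 on the log2 scale, adjusted p = 0.00441), from control livers that reached 41.4 CPM. Slc7a11 rose from 1 to 156 counts, a ratio of 137 with an interval of 24.3 to 5461 (adjusted p = 4.88e-10), and Gpx2 from 2 to 69 counts, a ratio of 30.4 with an interval of 8.1 to 256 (adjusted p = 6.36e-06). Txnrd1 was -0.73 (adjusted p = 0.0151, and 0.0529 without Ripk3-/- CD-HFD replicate 1) and Gclm -0.45 (adjusted p = 0.0063), the latter at -0.42 (adjusted p = 0.0635) without the count filter. With scaling by library size alone Txnrd1 was at -0.20 (adjusted p = 0.489) and Gclm turned to 0.09. Without the library labelled Ripk3-/- control replicate 5 the count stayed at 7 members, with Nqo1 at 1.52, Hmox1 at 1.07, Srxn1 at 1.73 and Txnrd1 at -0.72. Both Gpx2 counts of the control group lay in that library, and without it Gpx2 was at least 16-fold higher on CD-HFD. The 1 control count of Slc7a11 lay in replicate 3, without which it was at least 37.5-fold higher. Without Ripk3-/- control replicates 1 and 2 the call of Hmox1 was lost (0.62, adjusted p = 0.0515) and the other 6 held, with Nqo1 at 2.15, Srxn1 at 1.64 and Txnrd1 at -0.95.

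On CD-LFD, Ripk3-/- livers had 3 members called higher and 0 lower than on control, against 14% and 10.1% of all genes. Srxn1 was at 106, 56.4 and 97.7 CPM, above all control livers (1.41, adjusted p = 0.00331). Slc7a11 had 0.832, 0.421 and 0.679 CPM, 22.2 times the control level with an interval of 3.42 to 935 (adjusted p = 0.00231), and at least 6.05-fold higher without control replicate 3. Nqo1 had 10.4, 7.58 and 13.8 CPM (0.88, adjusted p = 0.03) and lost its call in 6 of 9 fits that left out 1 liver, among them the one without control replicate 5 (0.76, adjusted p = 0.0711), and when the 2 groups were fitted alone (0.93, adjusted p = 0.105). Hmox1 was at -0.39 (adjusted p = 0.415), Txnrd1 at -0.70 (adjusted p = 0.0578) and Gpx2 at a ratio of 8.14 (interval 1.78 to 75.6, adjusted p = 0.0611), with 1.77 (0.0299 to 33.9) without Ripk3-/- CD-LFD replicate 3 and at least 4.27-fold without control replicate 5. Without control replicates 1 and 2, 5 members were called: Nqo1 at 1.39 (adjusted p = 0.00071), Srxn1, Slc7a11, and, lower on CD-LFD, Txnrd1 at -0.93 (adjusted p = 0.0102) and Hmox1 at -0.77 (adjusted p = 0.0453). Txnrd1 also passed with either of these 2 libraries left out alone, with the replicate block (-0.86, adjusted p = 0.0171) and within the larger clock-phase set (-0.69, adjusted p = 0.0271), and Gpx2 passed with scaling by library size alone (2.86, adjusted p = 0.0291) and without control replicate 5 or CD-LFD replicate 2. Between the choline deficient diets, 2 members were called higher on CD-HFD and 0 lower, against 5.75% and 3.08% of all genes. They were Hmox1 (1.38, adjusted p = 0.0112, and 1.28 with adjusted p = 0.0802 without Ripk3-/- CD-LFD replicate 2) and Slc7a11 (6.19-fold, interval 3.64 to 11.3, adjusted p = 0.00137).

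In Mlkl-/- livers both choline deficient diets raised Nqo1, Gpx2 and Slc7a11, while Srxn1, Txnrd1 and Gclc were lower on CD-HFD and CD-LFD than on the control diet. From control to CD-HFD 4 members were called higher and 3 lower, against 24.9% and 20.3% of all genes (member median 0.36, all genes -0.04). With scaling by library size alone they were 7 and 3, where 6351 of the 14862 genes tested were called higher and 728 lower. From control to CD-LFD 6 were called higher and 3 lower, against 19.7% and 18.3%. Srxn1 went from 618, 429, 369, 261, 526 and 29.5 CPM in control replicates 1 to 6 to 131, 97.3 and 99.4 on CD-HFD and 56.1, 57.9, 70 and 77 on CD-LFD. Only control replicate 6 lay below the values on the choline deficient diets. The changes were -1.77 (SE 0.393, adjusted p = 0.000293) and -2.51 (SE 0.364, adjusted p = 1.69e-06), and -2.01 and -2.76 without control replicate 6. Txnrd1 was at 543, 290, 227, 279, 279 and 189 CPM on control and at 170, 92.4 and 147 on CD-HFD and 93.6, 97.8, 114 and 101 on CD-LFD. Control and choline deficient livers did not overlap (-1.14, SE 0.28, adjusted p = 0.000895 and -1.57, adjusted p = 1.12e-05). Gclc was at 1249, 420, 401, 399, 535 and 254 CPM on control, at 189, 140 and 166 on CD-HFD and at 190, 168, 240 and 148 on CD-LFD, again without overlap. Its changes were -1.72 (SE 0.346, adjusted p = 8.02e-05) and -1.54 (adjusted p = 0.000166). Without control replicate 1, which held the highest value of all 3 genes, the CD-HFD changes were -1.56 for Srxn1, -0.89 for Txnrd1 and -1.29 for Gclc. Without control replicates 1 and 5 they were -1.32, -0.85 and -1.16 on CD-HFD and -2.06, -1.28 and -0.98 on CD-LFD, with adjusted p of 0.00973 or less.

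Among the members that rose in Mlkl-/- livers, Nqo1 was at 15.1, 10.3 and 9.72 CPM on CD-HFD and 7.79, 8.18, 8.65 and 13.4 on CD-LFD, all above the control range of 1.89 to 4.95. The changes were 1.79 (adjusted p = 7.25e-06) and 1.49 (adjusted p = 0.000129). Hmox1 was at 91.6, 73.6 and 105 CPM on CD-HFD, above the highest control at 55.3 (1.49, adjusted p = 0.000107). On CD-LFD it was at 21.1, 31.4, 21.6 and 17 CPM and did not pass (-0.49, adjusted p = 0.192). Slc7a11 rose from 3 counts to 134 on CD-HFD (ratio 81.2, interval 27.2 to 399, adjusted p = 1.05e-10) and 25 on CD-LFD (10.1, 3.07 to 52.1, adjusted p = 0.000798). Gpx2 rose from 1 count to 27 (49.1, 8.09 to 2010, adjusted p = 3.55e-05) and 11 (13.3, 1.93 to 572, adjusted p = 0.0203, and 0.0873 without Mlkl-/- CD-LFD replicate 4). Nfe2l2 also rose on CD-LFD, from 40.6 to 75.5 CPM on control to 101, 82.3, 95.6 and 95.6, with no overlap (0.75, adjusted p = 0.00179). Gclm (0.36, adjusted p = 0.0282) and Osgin1 (0.73, adjusted p = 0.0411) were called on CD-LFD but lost the call in 4 and 8 of 10 fits that left out 1 liver. Without control replicates 1 and 5, Gclm (0.34, adjusted p = 0.0741) and Gpx2 (2.83, adjusted p = 0.0695) lost their CD-LFD calls, while Nfe2l2 (0.55, adjusted p = 0.0438) and Osgin1 (0.67, adjusted p = 0.0445) passed on CD-HFD. With all libraries, Nfe2l2 was at 0.43 (adjusted p = 0.081) and Osgin1 at 0.29 (adjusted p = 0.477) on CD-HFD. Both also passed without control replicate 1 alone, at 0.54 (adjusted p = 0.0326) and 0.76 (adjusted p = 0.0154), and with scaling by library size alone, at 0.96 (adjusted p = 0.000215) and 0.82 (adjusted p = 0.028). Nfe2l2 passed too with size factors by relative log expression (adjusted p = 0.0486) and when the 2 groups were fitted alone (adjusted p = 0.0379). The Slc7a11 ratios without control replicates 1 and 5 were 167 (29.5 to 6661) on CD-HFD and 20.8 (3.4 to 852) on CD-LFD. Without the library labelled Mlkl-/- CD-HFD replicate 1, the same 7 members were called on CD-HFD, with Nqo1 at 1.56, Hmox1 at 1.46, Srxn1 at -1.93, Txnrd1 at -1.35 and Gclc at -1.84. From CD-LFD to CD-HFD, 2 members rose and 0 fell, against 14.6% and 9.14% of all genes: Hmox1 (1.98, adjusted p = 4.81e-05) and Slc7a11 (8.06-fold, interval 5.23 to 12.9, adjusted p = 2.92e-05). Their fitted changes without the library labelled Mlkl-/- CD-HFD replicate 1 were 1.97 and 3.04 (adjusted p = 0.000241 and 6.45e-05). CD-HFD replicate 4 held 80 of the 134 counts of Slc7a11, at 10.6 CPM against 5.04 and 3.26 in replicates 1 and 2. Without it the ratio was 5.07 (3.1 to 8.5) to CD-LFD and 51 (16.6 to 255) to control. The single control count of Gpx2 lay in replicate 3, without which Gpx2 was at least 12.9-fold higher on CD-HFD and at least 3.5-fold higher on CD-LFD.

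Each genotype had its own control livers, so the diet changes can be counted across genotypes. Nqo1, Hmox1, Gpx2 and Slc7a11 were called higher on CD-HFD than on control in all 3 genotypes, Nqo1 and Slc7a11 were so on CD-LFD, and Hmox1 and Slc7a11 rose between CD-LFD and CD-HFD in all 3. Of these calls, 4 were lost under some alternative, as given above: Hmox1 on CD-HFD, Nqo1 on CD-LFD and Hmox1 between the 2 diets in Ripk3-/-, and Gpx2 on CD-HFD in WT. Of all genes tested, 17.9%, 6.85% and 4.99% were called higher in all 3 genotypes for these 3 diet changes, and 10.6%, 3.8% and 1.77% lower. By edgeR 0 members were called lower in all 3 genotypes for any of the 3 diet changes.

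**Figure D2:**
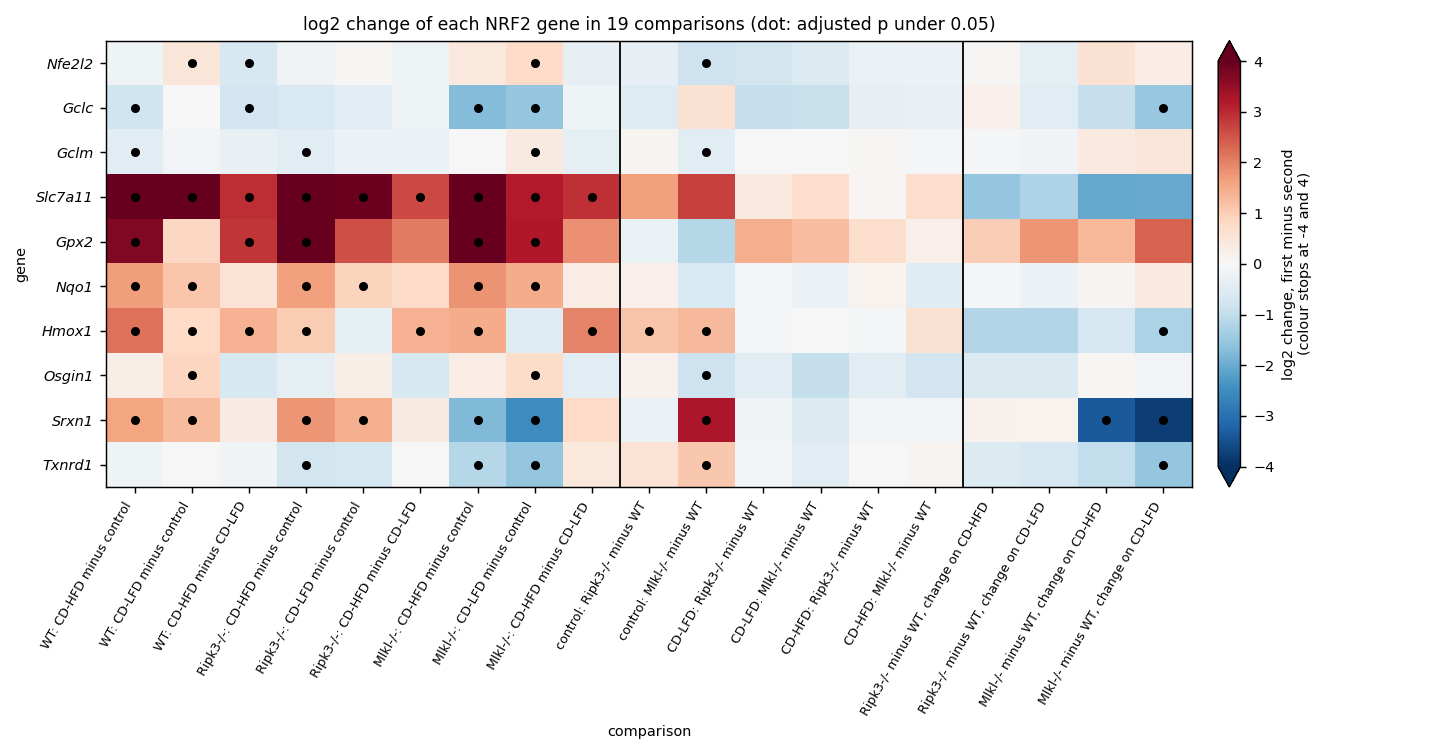
log2 change of each gene (vertical axis) in the 19 comparisons (horizontal axis), with colour giving direction and size and a dot marking an adjusted p under 0.05. Srxn1 was higher on both choline deficient diets than on control in WT and Ripk3-/- livers, whereas in Mlkl-/- livers Srxn1 changed by -1.77 on CD-HFD and -2.51 on CD-LFD.

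On the control diet the genotypes themselves differed, most of all in Srxn1. In Mlkl-/- control livers 3 members were called higher than in WT control livers and 3 lower, against 13% and 14.1% of all genes. The member median was 0.09 and the all-gene median -0.06. Srxn1 lay between 261 and 618 CPM in 5 of 6 Mlkl-/- livers and at 29.5 in replicate 6, while WT livers had 27.8, 40.4 and 48.9 CPM. Replicate 6 was thus within the WT range and the other 5 far above the highest WT liver. The log2 change was 3.23 (SE 0.324, 9.39-fold, adjusted p = 8.17e-09), which was the 2nd smallest p among the 14862 genes tested. It was 3.48 without Mlkl-/- control replicate 6 and 3.03 without replicate 1, which span the range over all fits that left out 1 liver, 2.78 without replicates 1 and 5, and between 3.14 and 3.34 under the other alternatives run. Replicates 1 and 5, whose Mlkl lay in the WT range, had 618 and 526 CPM of Srxn1, the highest of the 6. Per kb of exon Srxn1 stood at 132 CPM (10.5 to 219) in these livers, against 14 in WT.

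Hmox1 and Txnrd1 were also higher in Mlkl-/- control livers. Hmox1 was at 55.3, 24.7, 26.2, 41.9, 25.4 and 18.9 CPM in replicates 1 to 6, all above the WT range of 7.08 to 16.5 (1.29, SE 0.282, adjusted p = 0.000693, and 1.23 with adjusted p = 0.0503 within the larger clock-phase set). Txnrd1, given above by replicate, exceeded the WT range of 81.1 to 188 in all 6 livers (1.09, SE 0.22, adjusted p = 0.000299). Gclc was at a median of 411 CPM against 316 and did not pass (0.62, adjusted p = 0.0698). Its value was 0.19 (adjusted p = 0.587) without replicate 1, which had 1249 CPM, and 0.77 (adjusted p = 0.0208) without replicate 6. With clock phase as a covariate it was 1.26 (adjusted p = 0.00513), within the larger clock-phase set 1.34 (adjusted p = 0.0136) and with the replicate block 0.62 (adjusted p = 0.0338). Without replicates 1 and 5, Hmox1 was at 1.10 (adjusted p = 0.00904), Txnrd1 at 0.80 (adjusted p = 0.0107) and Gclc at 0.07 (adjusted p = 0.879).

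Nfe2l2, Gclm and Osgin1 were lower in the same Mlkl-/- livers. Nfe2l2 had 40.6, 54.1 and 75.5 CPM against 74.6, 87.2 and 148 in WT, with ranges that barely overlapped (-0.84, SE 0.171, adjusted p = 0.000322, and -0.56 with adjusted p = 0.0559 within the larger clock-phase set). So the RNA of the transcription factor was lower where that of Srxn1, Txnrd1 and Hmox1 was higher. Gclm had 138, 166 and 222 CPM against 161, 243 and 260 (-0.45, adjusted p = 0.00495), and missed the threshold without the count filter (-0.41, adjusted p = 0.0649) and when the 2 groups were fitted alone (-0.48, adjusted p = 0.0529). Osgin1 had 338, 101, 108, 105, 73.4 and 116 CPM against 111, 278 and 347, with replicate 1 inside the upper WT range. Its change of -0.83 (adjusted p = 0.0159) became -1.31 (adjusted p = 6.18e-05) without replicate 1. It was -0.20 (adjusted p = 0.727) with clock phase as a covariate, 0.09 (adjusted p = 0.901) within the larger clock-phase set and -0.56 (adjusted p = 0.161) without WT control replicates 5 and 6, with replicate 5 alone enough to lose the call (-0.72, adjusted p = 0.0511). Fitting the 2 groups alone also lost the call (-0.88, adjusted p = 0.114). Nqo1 was at -0.61 (adjusted p = 0.116).

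Some markers of most cell types were called between these control groups. Of 10 macrophage markers, 1 was called higher in Mlkl-/- (Cd14, 2.83), and the summed macrophage markers ran from 117 to 255 CPM in Mlkl-/- and from 169 to 221 in WT. Of the cholangiocyte markers, Epcam and Spp1 were called higher, and their sums ran from 77.4 to 146 CPM in Mlkl-/- and from 44.5 to 82.9 in WT. Endothelial markers were 1 higher and 1 lower of 4, with median sums of 120 and 153 CPM, and 1 of 6 stellate cell markers and 1 of 2 tested neutrophil markers were higher. The 1 B cell marker tested, Cd79a, was lower (-3.24), and the B cell sums did not overlap, at 0 to 0.215 CPM in Mlkl-/- and 0.244 to 3.66 in WT. The 4 T cell markers tested (-0.73 to -0.20) and the 3 intestine markers (-0.71 to 0.50) did not pass, though Fabp2 of the intestine list had an unadjusted p of 0.0251. Of 7 hepatocyte markers 1 was called, the regulator Hnf4a (0.97). The summed hepatocyte markers had medians of 116321 and 125813 CPM. Their part in the Srxn1 difference was not tested.

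In Ripk3-/- control livers only Hmox1 was called, so 1 member was higher and 0 lower than in WT, against 2.25% and 2.23% of all genes. Hmox1 was at 14.2, 10.2, 38.1, 41.4, 35.4 and 30.8 CPM in replicates 1 to 6. Replicates 1 and 2, the libraries that stood apart, lay within the WT range and the other 4 above it (1.13, SE 0.282, adjusted p = 0.014). They were also the lowest of the 6 in Txnrd1 and the highest in Nqo1 (8.34 and 11.1 CPM against 3.12 to 5.35) and Nfe2l2 (109 and 101 CPM against 49.1 to 78.3). The call held without the library labelled replicate 5 (1.05, adjusted p = 0.0372) but not without replicate 4 (0.99, adjusted p = 0.0515). It was also lost without WT control replicates 5 and 6 (0.92, adjusted p = 0.106), with clock phase as a covariate (1.26, adjusted p = 0.074), within the larger clock-phase set (1.05, adjusted p = 0.226) and when the 2 groups were fitted alone (1.10, adjusted p = 0.164). Srxn1 had 23.3, 32.7 and 38.9 CPM in Ripk3-/- control livers, overlapping the WT range. Txnrd1 was at 137, 153, 234, 236, 214 and 289 CPM and did not pass (0.57, adjusted p = 0.127), nor did Nfe2l2 (-0.33, adjusted p = 0.271). Without replicates 1 and 2, 3 members were called: Hmox1 at 1.5 (adjusted p = 0.000103), Txnrd1 at 0.79 (adjusted p = 0.0188) and Nfe2l2 at -0.57 (adjusted p = 0.0301). None of the 3 control groups held more than 3 counts of Slc7a11 or Gpx2, so no fold is given for them.

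**Figure D3:**
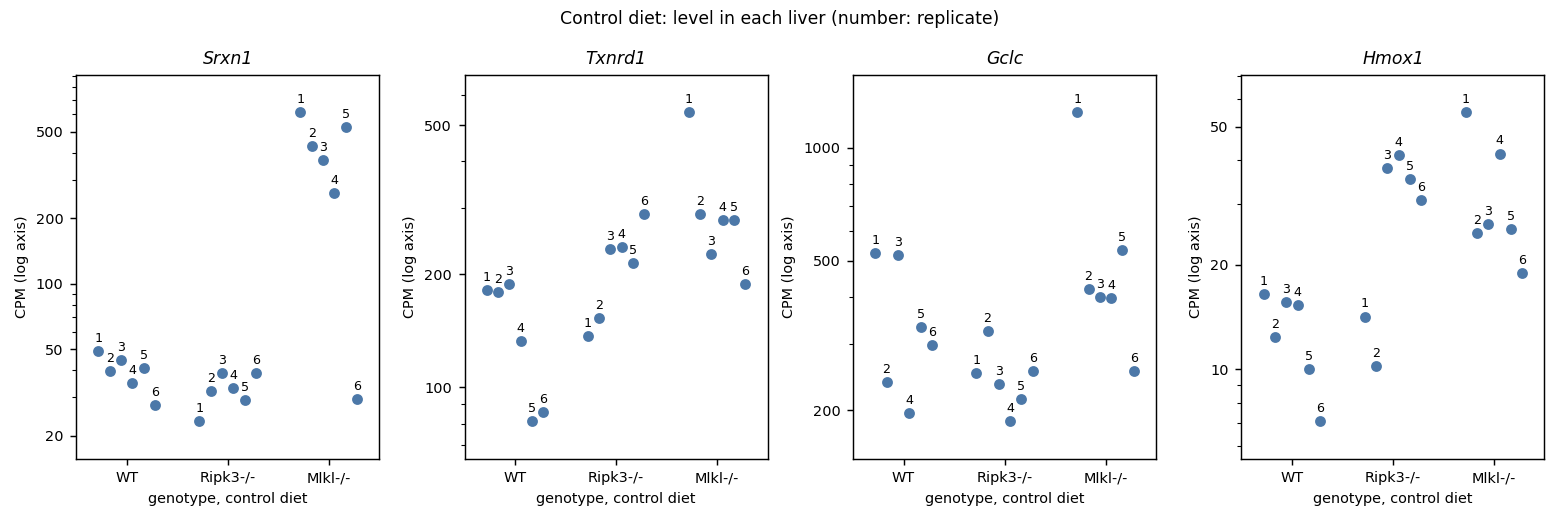
Levels on the control diet in each liver, in CPM on a log axis, by genotype, with replicate numbers beside the points. Srxn1 in Mlkl-/- livers lies at 261 CPM or more except in replicate 6 at 29.5, and Hmox1 and Txnrd1 in Mlkl-/- livers lie above all WT livers.

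On the choline deficient diets the main edgeR fit called no member between a knockout and WT, which does not show that levels were equal. DESeq2 and other alternatives called members on CD-LFD. On CD-HFD, 0 of 10 members were called between Ripk3-/- and WT, with 0 at an unadjusted p under 0.05 and 0 called by DESeq2, against 0.377% of all genes called by edgeR. Their log2 differences ran from -0.42 to 0.69 with SEs of 0.134 to 0.497. Of all 14862 genes tested, 1297 had an unadjusted p under 0.05 between these groups. Between Mlkl-/- and WT on CD-HFD, 0 members were called by edgeR or DESeq2, against 0% of all genes by edgeR, and 2 had an unadjusted p under 0.05: Osgin1 at -0.76 and Hmox1 at 0.62, both with adjusted p = 0.587. Without the library labelled Mlkl-/- CD-HFD replicate 1 they were -0.95 and 0.60. The differences of all 10 ran from -0.76 to 0.69 with SEs of 0.147 to 0.58. An unadjusted p under 0.05 was seen for 1246 of all genes tested between Mlkl-/- and WT. Srxn1, at 97.3 to 131 CPM in Mlkl-/- and 91 to 160 in WT, overlapped fully.

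On CD-LFD, 0 members were called by edgeR between either knockout and WT, against 1.1% of all genes for Ripk3-/- and 2.56% for Mlkl-/-. DESeq2 called 1 for Ripk3-/-, Nfe2l2 (-0.75, adjusted p = 0.033), and 2 for Mlkl-/-, Gclc (-0.92, adjusted p = 0.0399) and Osgin1 (-0.97, adjusted p = 0.0336). With the replicate block Gclc passed in Ripk3-/- (-1.15, adjusted p = 0.0367) and Mlkl-/- (-1.01, adjusted p = 0.0249). Library size scaling called Nfe2l2 in Ripk3-/- (-0.86, adjusted p = 0.0465). In Mlkl-/-, Gclc and Osgin1 passed by library size (adjusted p = 0.0191 and 0.0161) and with the 2 groups fitted alone (adjusted p = 0.0245 and 0.00826). By edgeR, for Ripk3-/-, Gclc (-0.93, adjusted p = 0.198) and Nfe2l2 (-0.73, adjusted p = 0.0817) had an unadjusted p under 0.05. For Mlkl-/-, the 3 such members were Osgin1 (-0.95, adjusted p = 0.0776), Gclc (-0.90, adjusted p = 0.096) and Nfe2l2 (-0.56, adjusted p = 0.112). Of all genes tested by edgeR, 1692 had such a p for Ripk3-/- and 2320 for Mlkl-/-. All WT CD-LFD livers were in the smaller clock-phase set and all knockout CD-LFD livers in the larger, so within this diet clock phase and genotype cannot be told apart. With clock phase as a covariate, whose size then comes from the WT control and CD-HFD livers, Gclc was at -0.08 in Ripk3-/- and -0.05 in Mlkl-/-, Osgin1 at -0.13 in Mlkl-/- and Nfe2l2 at -0.45 in Ripk3-/- (adjusted p from 0.961 to 1). Without WT CD-LFD replicate 3, the library with by far the most counts, 1 member was called in each of these comparisons.

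Whether the diet changed a member differently in a knockout than in WT was tested as an interaction. For Mlkl-/- the CD-HFD interaction called 0 members higher and 1 lower, against 1.58% and 2.53% of all genes. This was Srxn1 at -3.35 (SE 0.504, adjusted p = 0.000246), again the 2nd smallest p of all genes, with -3.59 without Mlkl-/- control replicate 6, -3.15 without replicate 1 and -3.54 without the library labelled Mlkl-/- CD-HFD replicate 1. Without control replicates 1 and 5 it was -2.90 (adjusted p = 0.00173). Txnrd1 (-0.98, adjusted p = 0.099) and Gclc (-0.93, adjusted p = 0.211) did not pass. Txnrd1 did with DESeq2 (-0.99, adjusted p = 0.0449) and without Mlkl-/- control replicate 6 (-1.08, adjusted p = 0.0413), and it was -0.73 (adjusted p = 0.225) without replicate 1. Gclc passed with clock phase as a covariate (-1.39, adjusted p = 0.0487) and within the larger clock-phase set (-1.56, adjusted p = 0.0475), and it was -0.49 (adjusted p = 0.516) without replicate 1 and -0.37 (adjusted p = 0.718) without replicates 1 and 5. The CD-LFD interaction called 0 members higher and 4 lower, against 4.37% and 4.08%, and the member median was -0.70 against 0.05 for all genes. Srxn1 had the smallest p of all genes tested (-3.77, SE 0.473, adjusted p = 8.92e-06), and -4.02 and -3.57 without control replicates 6 and 1. Txnrd1 (-1.54, adjusted p = 0.00285), Gclc (-1.53, adjusted p = 0.0122) and Hmox1 (-1.28, adjusted p = 0.0442) were the other 3, and Hmox1 lost its call in 10 of 22 fits that left out 1 liver, with clock phase as a covariate (-1.21, adjusted p = 0.0833), when the 4 groups were fitted alone (-1.30, adjusted p = 0.051) and without WT control replicates 5 and 6 (-1.07, adjusted p = 0.0948). Without Mlkl-/- control replicates 1 and 5, Srxn1 (-3.32, adjusted p = 0.000113) and Txnrd1 (-1.26, adjusted p = 0.0181) were called and Gclc (-0.97, adjusted p = 0.0925) and Hmox1 (-1.09, adjusted p = 0.127) were not. These interactions use the same Mlkl-/- and WT control livers as the control-diet comparison and are not independent of it. For Ripk3-/-, 0 members were called in either interaction by edgeR or DESeq2, against 0.478% of all genes on CD-HFD and 0.0269% on CD-LFD, with 1 member at an unadjusted p under 0.05 in each. Over all genes tested, 1624 and 1230 had such a p. Hmox1 was at -1.17 in both (adjusted p = 0.206 and 0.448). Without the library labelled Ripk3-/- control replicate 5, Hmox1 was at -1.09 and -1.10 (adjusted p = 0.273 and 0.511). Without Ripk3-/- control replicates 1 and 2 it was called in both, at -1.56 (adjusted p = 0.00746) on CD-HFD and -1.57 (adjusted p = 0.0253) on CD-LFD.

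In the wider NRF2 pathway about as many genes were called lower as higher on CD-HFD with TMM scaling, a balance that moved with the scaling. From control to CD-HFD in WT, 15 of 52 tested genes of 6 related lists (regulators, glutathione, thioredoxin and peroxiredoxin, NADPH supply, detoxifying enzymes, iron and haem) were called higher and 14 lower, with a median of -0.19. These shares were near those of all genes tested, of which 23.5% were called higher and 24.1% lower. With scaling by library size alone, 22 were called higher and 8 lower (median 0.30), where 86.9% of the calls over all genes were higher. Among 10 regulators, the small MAF partners of NRF2, Maff (1.51, adjusted p = 0.00803) and Mafk (0.86, adjusted p = 6.02e-06), rose. Maff lost its call with clock phase as a covariate (1.17, adjusted p = 0.0543) and within the larger clock-phase set (0.69, adjusted p = 0.335). Keap1, the NRF2 inhibitor, was called lower at -0.34 (adjusted p = 0.00765) but stood at 0.16 with scaling by library size alone and missed the threshold without the count filter (-0.28, adjusted p = 0.165) and when the 2 groups were fitted alone (-0.31, adjusted p = 0.0638). The other 7 regulators (Cul3, Rbx1, Btrc, Sqstm1, Bach1, Nfe2l1 and Mafg) were between -0.54 and 0.12 and did not pass. In the glutathione list 7 of 17 were higher and 6 lower (median -0.34), with the exporter gene Abcc4 at 1.74 (adjusted p = 9.72e-05), Gstm3 at 1.52 (adjusted p = 1.38e-05) and Gstp1, an abundant glutathione transferase, at -2.18 (adjusted p = 7.51e-13). Of the 4 thioredoxin and peroxiredoxin genes, Prdx6 was lower (-1.10, adjusted p = 6.38e-07).

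NADPH enzymes were 2 higher and 2 lower of 6. G6pdx, the entry enzyme of the pentose phosphate pathway, rose from 6.34 CPM by 1.52 (adjusted p = 8.63e-08), whereas Me1, the malic enzyme, dropped from 341 to 21.5 CPM (-3.99, adjusted p = 1.69e-08), and Idh1, the cytosolic isocitrate dehydrogenase, was at -1.27. Of 10 detoxifying enzymes 3 rose and 3 fell. Cbr3, a carbonyl reductase, went from 1.23 to 10 CPM (3.15, adjusted p = 8.45e-08), Akr1b8, an aldo-keto reductase, from 2.46 to 12 CPM (2.32, adjusted p = 1.34e-08), and Aox1, the aldehyde oxidase, fell by 1.45 on the log2 scale (adjusted p = 4.15e-07). The iron and haem list had 1 higher, Fth1, the ferritin heavy chain, at 0.41 (adjusted p = 0.00848), and 1 lower, Fech, which makes haem, at -0.73 (adjusted p = 0.00187), of 5. Fth1 lost its call within the larger clock-phase set (0.24, adjusted p = 0.246) and when the 2 groups were fitted alone (0.44, adjusted p = 0.0547), and Fech with scaling by library size alone (-0.22, adjusted p = 0.303). Antioxidant enzymes outside the NRF2 lists were 1 higher and 6 lower of 11: Gpx3, the plasma glutathione peroxidase, rose from 6.15 to 82.3 CPM (3.75, adjusted p = 6.76e-11), while Cat, the catalase, and Sod1, the cytosolic superoxide dismutase, fell (-1.30, and -1.22 with adjusted p = 1.53e-06 for Sod1).

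The ATF4 response list, genes induced by amino acid shortage as Slc7a11 is also known to be, had 8 of 11 genes called higher and 0 lower on CD-HFD in WT (median 1.65) and 7 higher and 0 lower on CD-LFD (median 1.51). Of all genes tested, 23.5% were called higher and 24.1% lower on CD-HFD, and 13.7% and 14% on CD-LFD. In Ripk3-/- livers it had 5 higher and 1 lower on CD-HFD (median 0.46), against 24.6% and 21.7% of all genes, and 6 and 0 on CD-LFD (median 0.82), against 14% and 10.1%. In Mlkl-/- livers it had 4 and 1 on CD-HFD (median 0.47), against 24.9% and 20.3%, and 6 and 0 on CD-LFD (median 0.83), against 19.7% and 18.3%. Between CD-LFD and CD-HFD, where Slc7a11 was called higher in each genotype, the list had 3 higher and 1 lower in WT (median 0.11), 0 and 0 in Ripk3-/- (median -0.36) and 2 and 1 in Mlkl-/- (median -0.24). Of all genes, 13.7% and 7.4%, 5.75% and 3.08%, and 14.6% and 9.14% were called higher and lower in these 3 comparisons. Its WT CD-HFD examples were Psat1, a serine synthesis enzyme (0.373 to 5.51 CPM, 3.82, adjusted p = 7.93e-08), the stress factor Atf3 (4.23 to 45 CPM, 3.45, adjusted p = 1.08e-09) and Chac1, which degrades glutathione (2.95, adjusted p = 8.07e-06, and 4.09 with clock phase as a covariate). On CD-LFD in WT, 9 of 52 genes of the 6 NRF2-linked lists were higher and 9 lower (median -0.10), with Mafk at 0.68 (adjusted p = 0.000614). Cul3 was called lower there, but lost its call in several fits that left out 1 liver. It also lost it with clock phase as a covariate (-0.57, adjusted p = 0.124), by library size alone (-0.35, adjusted p = 0.24) and with the 2 groups fitted alone (-0.59, adjusted p = 0.242). The 6 lists gave 12 higher and 15 lower on CD-HFD in Ripk3-/- livers, against 24.6% and 21.7% of all genes. In Mlkl-/- livers they gave 12 and 13, against 24.9% and 20.3%. With scaling by library size alone they gave 17 and 5 on CD-LFD in WT, 24 and 6 on CD-HFD in Ripk3-/- and 23 and 4 on CD-HFD in Mlkl-/-, while the share of all calls that were higher went from 49.6% to 84.8%, from 53.1% to 90.2% and from 55.1% to 89.7%. The ATF4 list then gave 10 higher and 0 lower on CD-HFD in WT and 7 and 0 in each knockout.

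In Mlkl-/- control livers, where Srxn1 stood out, 5 of 52 genes of these lists were called higher than in WT and 12 lower, with a median of -0.19, against 13% and 14.1% of all genes. The regulators were 3 higher and 3 lower of 10. Mafk (0.85, adjusted p = 4.25e-05), Bach1, a repressor that competes with NRF2 at the same elements (0.79, adjusted p = 0.0106), and Sqstm1, the autophagy receptor p62 (0.45, adjusted p = 0.03), were higher. Mafg (-0.86, adjusted p = 0.000267), Btrc (-0.59, adjusted p = 0.00669) and Rbx1 (-0.39, adjusted p = 0.0417) were lower. Of these 6 regulator calls, those of Mafk and Mafg held under every alternative run. Bach1 was at 0.39 (adjusted p = 0.148) without Mlkl-/- control replicate 1 and lost its call within the larger clock-phase set (0.53, adjusted p = 0.325), Sqstm1 and Rbx1 lost theirs in 5 and 7 of the 12 fits that left out 1 liver, and Btrc was at -0.52 (adjusted p = 0.115) within the larger clock-phase set and -0.42 (adjusted p = 0.0884) without Mlkl-/- control replicates 1 and 5. Sqstm1 was at 0.44 (adjusted p = 0.0778) without that pair. In the glutathione list 4 of 17 were lower, among them Gsta2 (-1.05, adjusted p = 0.0155) and Gstp1 (-0.67), and 1 was higher, the glutathione reductase gene Gsr, named after its value was seen (0.56, adjusted p = 0.0104). Ugdh was higher too (0.53, adjusted p = 0.0123, and 0.0527 without Mlkl-/- control replicate 1), while Txn1, the thioredoxin that Txnrd1 reduces (-0.62, adjusted p = 0.0118, and 0.0763 without WT control replicate 5), Blvrb, a biliverdin reductase (-0.99, adjusted p = 0.000567), and Aox1 (-1.21, adjusted p = 5.81e-05) were lower. Within the larger clock-phase set Aox1 was at -0.59 (adjusted p = 0.124), Gsta2 at -1.04 (adjusted p = 0.175), Ugdh at 0.28 (adjusted p = 0.426) and Txn1 at -0.53 (adjusted p = 0.0896), and Gsr was at 0.35 (adjusted p = 0.143) without WT control replicates 5 and 6. Without Mlkl-/- control replicates 1 and 5, Gsr was at 0.46 (adjusted p = 0.0668) and Ugdh at 0.40 (adjusted p = 0.107). Between Ripk3-/- and WT control livers, 1 of 52 was called higher and 0 lower, against 2.25% and 2.23% of all genes. Between the genotypes on CD-HFD, 0 of 52 were called by edgeR or DESeq2, against 0.377% of all genes for Ripk3-/- and 0% for Mlkl-/- by edgeR, with 3 at an unadjusted p under 0.05 for Ripk3-/- and 7 for Mlkl-/-. The counts of called genes are near the background. Of all 14862 genes tested, 1297 had an unadjusted p under 0.05 on CD-HFD for Ripk3-/- and 1246 for Mlkl-/-.

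**Figure D4:**
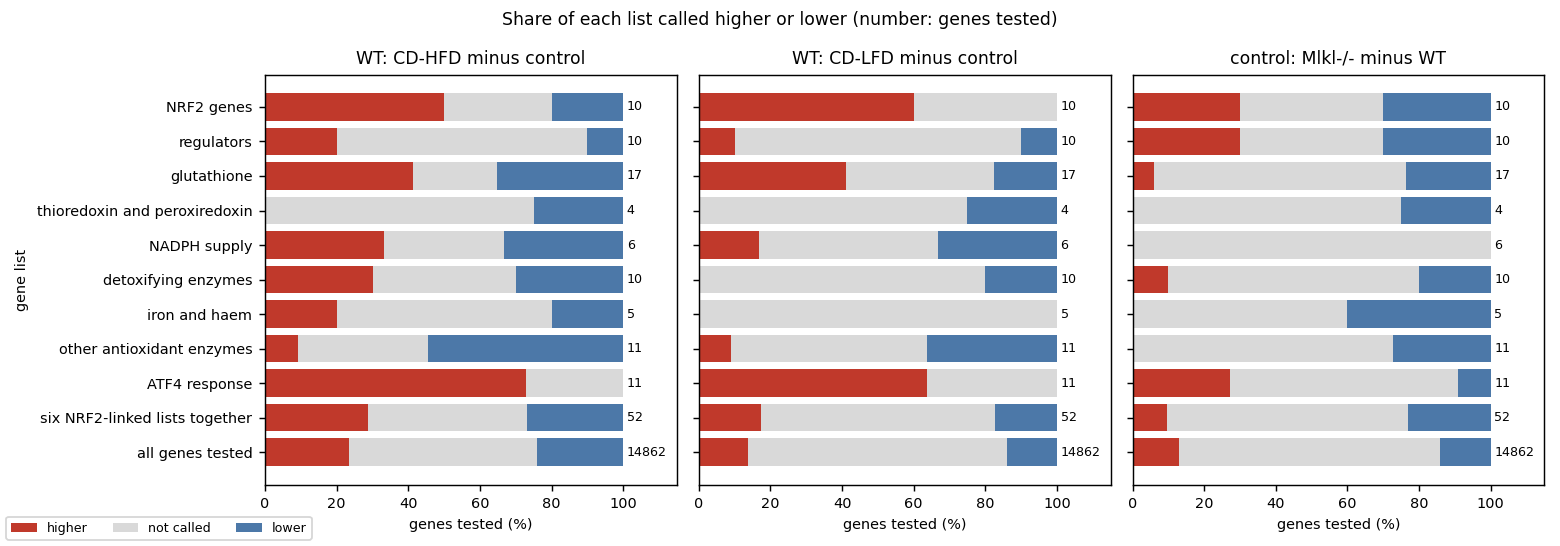
Percentage of each gene list called higher or lower (bars from 0), with the number of genes tested beside each list and all genes tested as the background. On CD-HFD in WT, 5 of the 10 NRF2 genes are higher and 2 lower, against 8 higher and 0 lower of 11 in the ATF4 response list.

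Few pairs of members were called as varying together between livers of one group. After each group's mean was removed, 45 pairs of members were correlated over the 44 livers, with 100000 permutations of livers within groups. By Pearson's r and Spearman's rho together, 2 of 45 pairs had an adjusted p under 0.05. By rho alone, Gclc with Srxn1 (0.49, adjusted p = 0.028), Srxn1 with Txnrd1 (0.48, adjusted p = 0.028) and Gclc with Osgin1 (0.48, adjusted p = 0.048) also passed. Their r was 0.56, 0.47 and 0.58 (adjusted p = 0.15, 0.14 and 0.1). Hmox1 and Txnrd1 varied together, with r = 0.70 (permutation p = 2e-05, adjusted 0.0009) and rho = 0.71 (permutation p = 1e-05, the smallest the permutations can give, adjusted 0.00045). Without the 2 livers farthest from the median r was 0.66, and with clock-phase means removed it was 0.70. Gclc and Txnrd1 had r = 0.59 (permutation p = 0.0013, adjusted 0.03) and rho = 0.46 (permutation p = 0.0054, adjusted 0.049), with r = 0.42 without the 2 farthest livers. Leaving out the Mlkl-/- control group, an alternative chosen after seeing the data, gave 0.66 for Hmox1 and Txnrd1 (adjusted p = 0.0112) and 0.42 for Gclc and Txnrd1 (adjusted p = 0.132). The latter pair therefore rested in part on that group, where replicate 1 was highest in both genes. Ripk3-/- control replicates 1 and 2, low in both Hmox1 and Txnrd1 beside their group, also entered these correlations. Without them r was 0.66 for Hmox1 and Txnrd1 (adjusted p = 0.00562) and 0.70 for Gclc and Txnrd1 (adjusted p = 0.00562). Without Mlkl-/- control replicates 1 and 5, r was 0.66 (adjusted p = 0.0027) and 0.45 (adjusted p = 0.159).

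**Figure D5:**
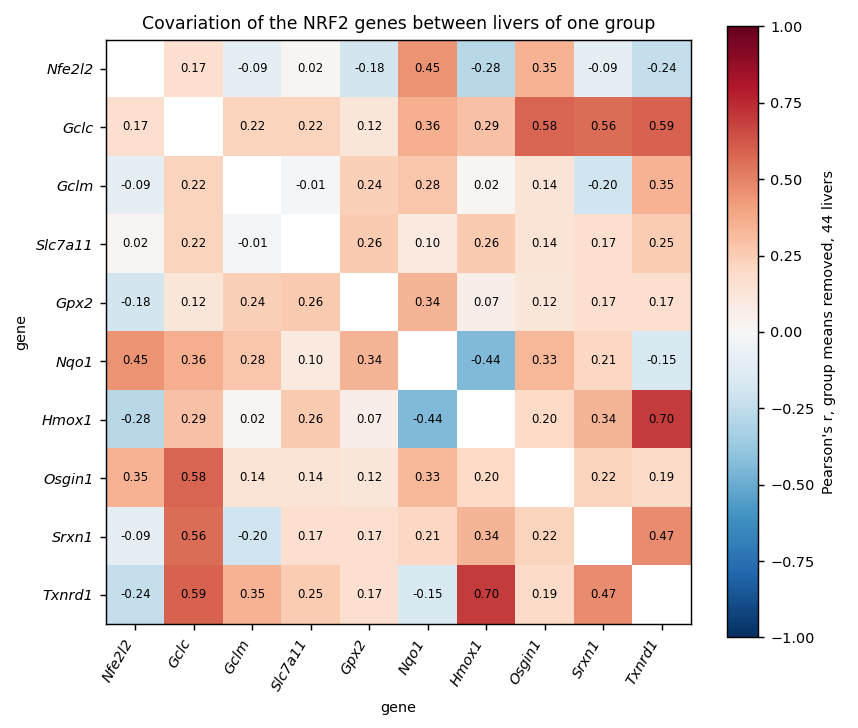
Pearson's r between each pair of the 10 genes (both axes) over 44 livers after group means were removed, in colour. The highest pair is Hmox1 with Txnrd1 at 0.70, followed by Gclc with Txnrd1 at 0.59.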

How the data were processed

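Per the labels, total RNA from pieces of liver was extracted with an RNeasy kit and sequenced from directional NEBNext Ultra II libraries. The authors deposited raw read counts per Ensembl gene, whole numbers with no normalization, for 35249 genes in 44 libraries. The submitters' processing notes name FastQC, STAR, HTSeq, edgeR, limma and the builds GRCm39 and mm39, with no versions. The annotation and the strand setting of the counting are not given in the sources used here, so a gene cannot be told apart from an overlapping antisense partner. Groups came from the labels as genotype and diet. The 10 members, the gene lists and the tests were chosen with earlier results of these data known.

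Symbols were matched for 34373 identifiers and not for 876. Genes were filtered with filterByExpr (minimum count 10), which kept 14862 genes and 99.85% of counts. Libraries were scaled by trimmed mean of M-values (TMM) factors, and one model over all 9 groups was tested by edgeR 4.0.16's quasi-likelihood test (R 4.3.3), with Benjamini-Hochberg adjustment over all genes and a threshold of 0.05. The SE of a log2 change is its size divided by the square root of F. Replicates within groups differed by more than counting noise (chi-square per degree of freedom 7.22 to 110). For genes at or under 3 counts in a group, ratios of summed counts are given with 95% exact intervals, or a lower bound against a floor of 3 counts over the group. Per-kb levels used GENCODE exon lengths on GRCm38, and promoter windows came from RefSeq on GRCm38.p6. The script was checked on simulated data. Alternatives were DESeq2 1.42.0, other scaling, no count filter, a robust fit, only the compared groups, a replicate block, clock phase (split at a gap of 1.03 in log2 Arntl over Dbp), WT control replicates 5 and 6 left out (0.557 to 0.757% of counts in predicted genes, 0.293 to 0.67% elsewhere), each library left out and, added after seeing the data, pairs of libraries left out of the Ripk3-/- and Mlkl-/- control groups. All 10 members and all regulators were named, and from each other list up to 3 called genes with the largest absolute log2 change at a mean log2 CPM of at least 1.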

Additional observations from a re-analysis of the deposited data

Results flagged for a closer look

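Of 70 combinations of gene and group of 4 to 6 livers, 8 had 1 liver far from the others by Dixon's criterion, which chance alone would meet in about 1 in 20 groups. For Srxn1 in Mlkl-/- control livers it was replicate 6 at 29.5 CPM, with the others at 261 to 618. For Osgin1 they were Mlkl-/- control replicate 1 at 338 CPM and Ripk3-/- control replicate 3 at 405 CPM. For Gclm they were WT control replicate 6 at 161 CPM, below the rest at 237 to 260, and Ripk3-/- control replicate 2 at 285 CPM, above the rest at 234 to 248. The other 3 rest on groups with 2 counts or fewer in all, held by 1 liver. There the criterion is met by construction, so the rate of 1 in 20 does not apply. They were Gpx2 at 0.279 CPM in Ripk3-/- control replicate 5 and at 0.125 CPM in Mlkl-/- control replicate 3, and Slc7a11 at 0.163 CPM in Ripk3-/- control replicate 3.

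The effect of diet differed between Mlkl-/- and WT livers, by the interaction test of edgeR, for 5 combinations of gene and diet. On CD-LFD these were Srxn1 at -3.77, Txnrd1 at -1.54, Gclc at -1.53 and Hmox1 at -1.28, and on CD-HFD Srxn1 at -3.35 (log2 scale, Mlkl-/- minus WT in the change from control).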

How the results depend on the processing

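Of 60 calls of a member in a comparison, 37 held under every alternative run. All 60 held with DESeq2, size factors by relative log expression and a robust fit, 59 with the replicate block, 56 without the count filter, 54 with library size scaling and 51 with clock phase as a covariate. Of the calls that could be refitted, 44 of 52 held with only the compared groups, 39 of 45 in the larger clock-phase set 21 of 25 without WT control replicates 5 and 6, 10 of 11 without Ripk3-/- control replicates 1 and 2 and 23 of 27 without Mlkl-/- control replicates 1 and 5, the last 2 chosen after seeing the data. Leaving out 1 library kept 639 of 687. The cause of each change was not tested.

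Signs turned as follows. With library size alone, Gclm was 0.09 on CD-HFD in WT and in Ripk3-/-, and in WT Txnrd1 was 0.34, Nfe2l2 0.30 and Keap1 0.16. In the larger clock-phase set Nfe2l2 was 0.10 on CD-HFD in WT and Osgin1 0.09 between Mlkl-/- and WT control livers. Nfe2l2 was 0.11 on CD-HFD without WT control replicates 5 and 6, and Osgin1 was 0.07 between CD-HFD and CD-LFD in WT with the clock covariate.

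Counts of called members moved by over 1.5 times in these cases. Except for library size, counts over all genes are not given beside them, so these moves are not read as particular to the members. With the clock covariate they were 3 for CD-LFD and 3 for CD-HFD against CD-LFD in WT, 0 for Ripk3-/- against WT on control and 2 for the Mlkl-/- CD-HFD interaction. With only the compared groups they were 1 for CD-LFD in Ripk3-/-, 4 for CD-HFD against CD-LFD in Mlkl-/-, 0 for Ripk3-/- on control and 3 for Mlkl-/- on CD-LFD. Library size gave 5 for CD-HFD against CD-LFD in Mlkl-/- and, on CD-LFD, 1 for Ripk3-/- and 3 for Mlkl-/-. Over all genes the calls in these comparisons went from 3523 to 5158, from 164 to 143 and from 381 to 867. The larger clock-phase set gave 0 for Ripk3-/- on control and 2 for the Mlkl-/- CD-HFD interaction, DESeq2 gave 1 and 2 for Ripk3-/- and Mlkl-/- on CD-LFD and 2 for that interaction, and leaving out WT control replicates 5 and 6 gave 0 for Ripk3-/- on control. Leaving out 1 library gave 1 to 3 for CD-HFD against CD-LFD in Ripk3-/- (1 without Ripk3-/- CD-LFD replicate 2), 0 to 1 for Ripk3-/- on control (0 without its replicate 4), 0 to 1 for both knockouts on CD-LFD (1 without WT CD-LFD replicate 3) and 1 to 2 for the Mlkl-/- CD-HFD interaction (2 without Mlkl-/- control replicate 6). Without Ripk3-/- control replicates 1 and 2 there were 5 for CD-LFD in Ripk3-/-, 3 for Ripk3-/- on control and 1 for each Ripk3-/- interaction. Without Mlkl-/- control replicates 1 and 5 there were 2 for the Mlkl-/- CD-LFD interaction. Covariation had 1 pair without the Mlkl-/- control group and 4 without its replicates 1 and 5.

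Replicate numbers did not pair the samples: in 0 of 15 comparisons was every pair's correlation over 0.1, and in 17 of 64 pairs the sample correlated best with its own number. The replicate block gave 1 called member for each knockout on CD-LFD, and it took the call from Gclm on CD-LFD in Mlkl-/- (0.31, adjusted p = 0.0632). Depth limits Slc7a11 and Gpx2 on the control diet, where groups held 0 to 3 counts.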
